A study of Mus musculus with 36 samples.

Results

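The genes described here encode the degradative machinery of the lysosome: 24 lumenal hydrolases and their cofactors, 9 membrane proteins, 10 subunits of the proton pump (V-ATPase) and 2 transcription factors of lysosomal genes, 45 in all. They were chosen by name, with earlier results of these data known. A gene was measured where a feature of the array carried its symbol alone. This held for 43 of the 45, among 28940 features analysed, since Sgsh and Acp2 lay only on features shared with another gene. Where a gene had 2 features (Arsb and Mitf), the brighter was used.

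RNA came from lung lavage macrophages of male Scnn1b-Tg mice, in which the Scgb1a1 promoter of airway club cells drives the sodium channel subunit Scnn1b, and of their wild-type (WT) littermates, on a C57Bl/6N Tac background. The promoter is that of an airway epithelial cell and not of macrophages, and both genotypes had been depleted of granulocytes on an Ly-6G column. Lavage of mice kept specific pathogen free (SPF) was done at postnatal day (PND) 0 (3 Tg and 3 WT arrays), PND 3 (4 and 4), PND 10 (4 and 4) and PND 42 (4 and 4), and germ-free (GF) mice came from a separate facility at PND 42 (3 and 3). Arrays up to PND 10 each held a pool of 3 pups, and those of PND 42 a single mouse, so that the spread at the younger ages is that of pools. Housing and animal facility cannot be told apart.

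Lysosomes digest what a macrophage engulfs. Their hydrolases are made in the endoplasmic reticulum, tagged with mannose 6-phosphate, and carried onward by receptors such as Igf2r, and they work in the acid that the V-ATPase maintains by pumping protons through its membrane sector (V0) with energy from its ATP-splitting sector (V1). Many of these genes share a short promoter element, known as CLEAR, that the factor Tfeb and its relatives bind. Alveolar macrophages are known for a large lysosomal load, since they clear surfactant lipid.

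Values are log2 intensities, and differences are log2 differences (first-named group minus second) with their standard error from limma, called at a Benjamini-Hochberg adjusted p of 0.05 or less over all 28940 features. The medians of the 36 arrays lay between 3.72 and 4.06, so a group mean at or under 4.06 is close to background and a difference against it is a lower bound. Of the members this concerned Igf2r alone, in the WT mice of PND 42. Macrophage markers were listed under 17 symbols, old and new names of a gene among them, and 13 genes were measured. Their mean log2 level was between 9.15 and 9.91 on every array from PND 3 on. At PND 0 it was 7.74 to 8.36 on Tg and 8.21 to 8.89 on WT arrays. There 11 epithelial markers averaged 8.84 to 9.61, against at most 5.74 later. Scnn1b, the check of the genotype labels, was 10.23, 10.33 and 5.47 on the arrays labelled Tg at PND 0, against 4.06, 5.27 and 6.68 on those labelled WT, so replicate 3 of each genotype went against its label or did not separate. At PND 3 it was 5.37 to 6.03 in Tg and 3.09 to 3.55 in WT, and from PND 10 on it was near background and checks nothing. In such bulk RNA, fewer cells of a type and less RNA per cell cannot be told apart.

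The promoters of the members were searched for CLEAR because Tfeb, itself a member, binds it. RefSeq windows (GRCm38.p6, 250 bases before to 50 after the start of the gene) were given for 36 of the 43 members. The core CACGTG is its own reverse complement, so that a match on either strand is found. It stood in the windows of 11 members (30.6%), against 8.09% of 27025 genes. Counted by window, it stood in 11 of the 43 windows of these 36 members, against 7.15% of 32851 windows. The longer TCACGTGA, which contains the core, stood in 5 members (13.9%, against 1.12% of genes): Atp6v0d1, Atp6v1a, Gla, Igf2r and Mcoln1. The longest form searched, which adds a base at each end of TCACGTGA, stood in 1 member alone, Igf2r (2.78%, against 0.37% of genes). Most matches given here are therefore to the shorter forms. The stretches of the 5 members with a core that were higher in Tg macrophages at PND 42 are shown with those of Lamp1 and Mcoln1, which were not, each a run of 60 bases from the part of the window before the start, 5′ to 3′ on the strand of the gene, with every CACGTG in capitals.
Igf2r (chr17:12769707-12769766, minus strand): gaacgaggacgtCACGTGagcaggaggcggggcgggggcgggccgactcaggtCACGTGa
Gla (chrX:134601184-134601243, minus strand): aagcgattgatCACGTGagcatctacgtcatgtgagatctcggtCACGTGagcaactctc
Naglu (chr11:101069994-101070053, plus strand): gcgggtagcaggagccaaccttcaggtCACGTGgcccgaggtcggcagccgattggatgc
Gaa (chr11:119267796-119267855, plus strand): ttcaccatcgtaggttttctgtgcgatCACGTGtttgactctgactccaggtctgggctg
Atp6v1a (chr16:44139358-44139417, minus strand): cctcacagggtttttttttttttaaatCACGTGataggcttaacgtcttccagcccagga
Lamp1 (chr8:13159096-13159155, plus strand): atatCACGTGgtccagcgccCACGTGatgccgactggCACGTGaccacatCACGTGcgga
Mcoln1 (chr8:3500434-3500493, plus strand): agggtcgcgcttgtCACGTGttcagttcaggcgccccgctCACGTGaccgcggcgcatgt
The core was repeated in Igf2r, Gla and Mcoln1 (2 each in the stretch shown), in Atp6v0b (2, not shown) and most often in Lamp1 (4), and neither Atp6v0b nor Lamp1 was called in any genotype comparison. Among the 17 members called higher in Tg macrophages at PND 42 in either housing, 5 of 14 with a window had the core, and among the other 26 members 6 of 22 had it. A match is a description of letters and not of binding.

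A part of the lysosomal genes was higher in adult Scnn1b-Tg macrophages, and most of the set was not called. In GF mice of PND 42, 15 of the 43 were higher and 1 lower in Tg (by limma, against 3.14% and 1.77% of all features), with a median difference of 0.21 against -0.02 over all features. In SPF mice 13 were higher and none lower (against 2.72% and 1.77% of all features), with a median of 0.26, and centring each array on its median gave 11 higher and 2 lower there (Arsb and Ids), and 10 higher and 1 lower (Ids) in GF mice. The count in GF mice was 9 without Tg replicate 3 or with only the 2 groups fitted, and 10 without WT replicate 2. The share of all features called in those fits, or after centring, was not determined. The members lie among the brighter features, and of the 13355 features with a mean above 4.06, 5.03% were called higher in GF mice and 4.92% in SPF mice. At an unadjusted p under 0.05, 20 were higher and 3 lower in GF mice, and 23 and 3 in SPF mice. The share of all features at an unadjusted p under 0.05 was not determined for any comparison, so such counts have no background beside them. The ordinary linear test without moderation called 15 higher and 1 lower in GF mice, and 14 higher and 0 lower in SPF mice. In GF mice every Tg array lay above every WT array for 23 members and 9.21% of all features. Every Tg array lay below for 6 members and 12.1% of all features. In SPF mice of PND 42 it was above for 18 members and 5.59% of all features, and below for 2 members and 5.64%.

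Fewer members were called at the younger ages. At PND 3, 4 members were higher and 2 lower in Tg (against 2.17% and 1.87% of all features, median difference 0.09), and at PND 10, 5 were higher and none lower (against 1.13% and 0.435%, median 0.14). At PND 10, 1 was lower at an unadjusted p under 0.05 by limma, and the test without moderation called 0 lower after adjustment. On the arrays of PND 0, 6 were lower and none higher in those labelled Tg (against 1.59% and 2.74%, median -0.30), with 24 lower and 1 higher at an unadjusted p under 0.05, and 8 lower and 0 higher after adjustment in the test without moderation. The share of all features at that unadjusted p was not determined. Counting all 5 genotype comparisons, 24 members were called at least once and 19 never. The share of all features called at least once was not determined, so these counts have no background beside them. Igf2r, Gpnmb and Atp6v1a were higher at PND 3, PND 10 and in both groups of PND 42. At PND 3 every Tg array lay above every WT array for 10 members and 4.63% of all features, and below for 5 members and 5.92%. At PND 10 it was above for 12 members and 4.17% of all features, and below for 1 member and 2.90%. By the labels of PND 0 it was above for 1 member and 4.21% of all features, and below for 8 members and 6.69%.

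**Figure D1:**
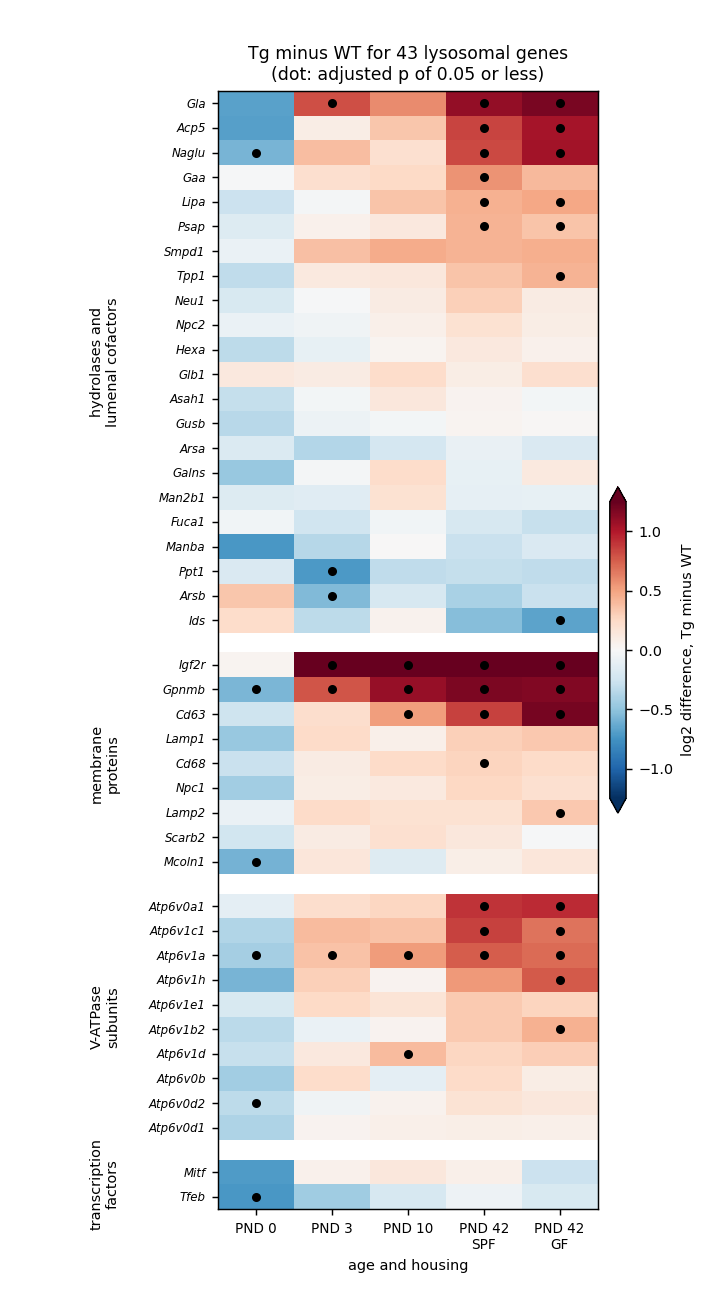
Log2 differences (Tg minus WT, colour scale) of the 43 members in rows, grouped by class, in the 5 genotype comparisons in columns, with a dot at an adjusted p of 0.05 or less. The colour scale ends short of Igf2r, whose differences were 2.60 to 2.93 from PND 3 on, and the column of PND 0 is mostly blue while those of PND 42 are mostly red.

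The membrane proteins held the largest differences. Igf2r, the mannose 6-phosphate receptor that delivers hydrolases to endosomes, was at 8.02, 8.22, 8.34 and 7.66 in Tg and at 7.26, 3.90, 4.24 and 5.10 in WT macrophages at PND 3. At PND 10 it was at 6.96, 6.89, 6.39 and 6.52 in Tg and at 4.40, 3.69, 3.72 and 4.56 in WT. The groups did not overlap at either age, and only replicate 1 of WT at PND 3 came near the Tg arrays. At PND 42 the receptor was at 5.98, 6.27, 6.32 and 6.37 in Tg and at 3.40, 3.52, 3.66 and 3.77 in WT under SPF housing, and at 5.46, 6.36 and 7.07 in Tg and at 3.58, 3.43 and 3.77 in WT in GF mice. These WT arrays were all at background, and the Tg arrays all above it. The fitted differences were 2.93 ± 0.41 at PND 3 (7.64-fold, adjusted p = 1.79e-05), 2.60 ± 0.41 at PND 10 (adjusted p = 0.000198), 2.65 ± 0.41 at PND 42 SPF (at least 6.27-fold, adjusted p = 5.06e-05) and 2.70 ± 0.47 in GF mice (at least 6.52-fold, adjusted p = 0.000308). At PND 0 it was at 7.20, 7.33 and 6.93 on arrays labelled Tg and at 7.11, 7.32 and 6.95 on those labelled WT (difference 0.03, 95% interval -0.94 to 0.99).

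Gpnmb, a glycoprotein of lysosomes and melanosomes, was also higher at every age from PND 3 on. Its Tg arrays were at 10.72, 10.96, 11.11 and 11.01 at PND 3, where WT was at 10.51, 9.84, 9.99 and 10.30. Under SPF housing at PND 42 it was at 11.26, 11.25, 11.06 and 11.38 in Tg and at 10.00, 10.12, 9.99 and 10.13 in WT, and in GF mice at 10.83, 10.90 and 10.94 in Tg and at 9.91, 9.55 and 9.73 in WT. Every Tg array lay above every WT array in all of these groups and at PND 10. The differences were 0.79 ± 0.13 at PND 3 (adjusted p = 0.000226), 1.09 ± 0.13 at PND 10 (4.78e-06), 1.18 ± 0.13 at PND 42 SPF (2.26-fold, adjusted p = 3.09e-07) and 1.16 ± 0.15 in GF mice (2.23-fold, 5.89e-06). Cd63, a tetraspanin of late endosomes, was at 8.85, 8.64 and 8.73 in Tg and at 7.78, 7.36 and 7.49 in WT in GF mice. In SPF mice of PND 42 it was at 9.21, 8.50, 8.72 and 8.60 in Tg and at 7.97, 8.05, 7.77 and 7.84 in WT, again without overlap. Its differences were 1.20 ± 0.15 in GF mice (2.30-fold, adjusted p = 2.44e-06) and 0.85 ± 0.13 in SPF mice (adjusted p = 4.3e-05). At PND 10 Cd63 was higher in Tg by 0.52 ± 0.13 (adjusted p = 0.0296), a call that was lost without any of 6 of the 8 arrays, all but replicate 4 of each genotype (0.0699 to 0.153).

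The other membrane proteins moved less. Cd68 (macrosialin) was at 11.93, 11.78, 11.74 and 11.90 in Tg and at 11.55, 11.45, 11.66 and 11.56 in WT in SPF mice of PND 42, a difference of 0.28 ± 0.07 (adjusted p = 0.0216) with no overlap. It lost that call without replicate 1 or 2 of WT or replicate 1 or 4 of Tg (0.0563 to 0.0897), and in GF mice the difference was 0.24 ± 0.09 (adjusted p = 0.124). Lamp2, needed for fusion of lysosomes with autophagosomes, was at 10.29, 10.24 and 10.37 in Tg and at 10.12, 9.87 and 9.89 in WT in GF mice. This rise of 0.34 ± 0.09 (adjusted p = 0.0232) was lost without replicate 2 or 3 of WT or replicate 1 or 3 of Tg (0.0501 to 0.149), and in SPF mice the difference was 0.19 (95% interval 0.02 to 0.35, adjusted p = 0.251). Lamp1, its structural relative, was at 10.67, 10.55, 10.78 and 10.86 in Tg and at 10.56, 10.11, 10.67 and 10.34 in WT in SPF mice of PND 42. These overlapped, and the difference of 0.30 (95% interval -0.02 to 0.61) did not pass the test. Npc1, the cholesterol exporter, differed by 0.20 (-0.06 to 0.46) in GF mice and by 0.26 (0.03 to 0.49, adjusted p = 0.25) in SPF mice. Scarb2, which carries glucocerebrosidase, and the calcium channel Mcoln1 were not called at PND 42. In all, 4 of the 9 membrane proteins were higher in each housing at PND 42 (against 3.14% of all features in GF and 2.72% in SPF mice), 3 at PND 10 (1.13%) and 2 at PND 3 (2.17%).

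**Figure D2:**
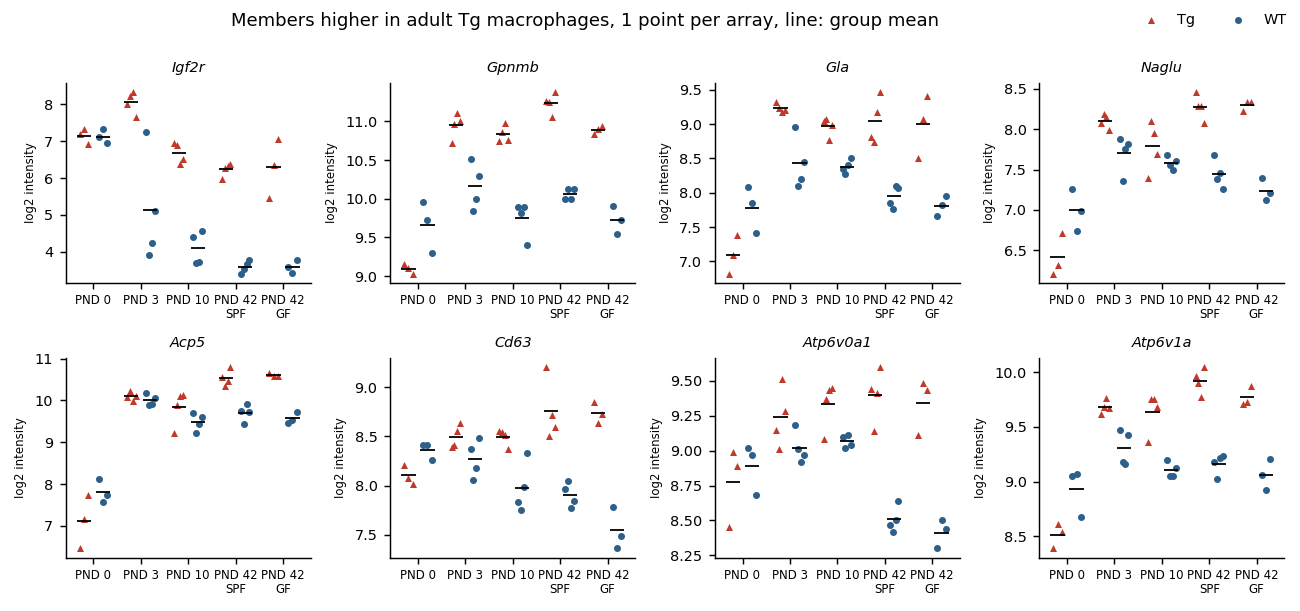
Log2 intensity (vertical axis) of 8 members by age and housing (horizontal axis), with 1 point per array (Tg as triangles left of WT as circles) and a line at the group mean. Tg arrays lie above all WT arrays for each of the 8 genes in both groups of PND 42, while at PND 0 Gpnmb, Gla, Naglu and Atp6v1a lie below. The 8 were taken from the members called higher at PND 42. Of all features, 9.21% lie above in this way in GF mice and 5.59% in SPF mice.

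Hydrolases were split between genes that were higher and genes that were not. Of 22 measured, 6 were higher and 1 lower in Tg in GF mice of PND 42 (against 3.14% and 1.77% of all features), and 6 were higher in SPF mice (2.72%). Gla, which removes terminal galactose from glycolipids, was at 8.51, 9.08 and 9.41 in Tg and at 7.66, 7.82 and 7.96 in WT in GF mice. Under SPF housing at PND 42 it was at 8.81, 8.74, 9.18 and 9.47 in Tg and at 7.85, 7.77, 8.10 and 8.07 in WT. No array of the genotypes overlapped in either housing. The differences were 1.19 ± 0.21 in GF mice (2.27-fold, adjusted p = 0.000377) and 1.10 ± 0.18 in SPF mice (2.14-fold, adjusted p = 0.000141). It was also higher at PND 3, at 9.32, 9.23, 9.18 and 9.20 in Tg and at 8.96, 8.10, 8.20 and 8.45 in WT (0.81 ± 0.18, adjusted p = 0.00606), whereas at PND 10 its difference of 0.59 ± 0.18 had an adjusted p of 0.108.

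Naglu, an enzyme of heparan sulfate breakdown, was at 8.22, 8.33 and 8.34 in Tg and at 7.39, 7.12 and 7.21 in WT in GF mice. In SPF mice of PND 42 it was at 8.46, 8.29, 8.28 and 8.08 in Tg and at 7.68, 7.38, 7.46 and 7.26 in WT. The genotypes were apart in both, by 1.05 ± 0.16 in GF mice (2.08-fold, adjusted p = 3.66e-05) and 0.83 ± 0.14 in SPF mice (1.78-fold, adjusted p = 0.00012). Acp5, the tartrate-resistant acid phosphatase of macrophages and osteoclasts, was at 10.66, 10.59 and 10.58 in Tg and at 9.47, 9.54 and 9.72 in WT in GF mice. Its values in SPF mice of PND 42 were 10.57, 10.34, 10.47 and 10.81 in Tg and 9.76, 9.43, 9.91 and 9.73 in WT. Again no arrays overlapped, and the differences were 1.04 ± 0.22 in GF mice (2.05-fold, adjusted p = 0.0028) and 0.84 ± 0.19 in SPF mice (adjusted p = 0.00538). At PND 3 the phosphatase was at 10.09, 10.22, 9.98 and 10.10 in Tg and at 10.19, 9.89, 9.91 and 10.05 in WT, which overlapped (difference 0.09, 95% interval -0.30 to 0.48).

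Psap, Lipa, Gaa and Tpp1 rose by less than Gla, Naglu and Acp5. Psap, the precursor of the saposins that present sphingolipids to their hydrolases, differed by 0.36 ± 0.09 in GF mice (adjusted p = 0.0178, lost without WT replicate 2 or Tg replicate 3, at 0.0834 and 0.141). Its SPF values at PND 42 were 11.81, 11.63, 11.52 and 11.76 in Tg and 11.13, 11.15, 11.36 and 11.35 in WT (0.43 ± 0.08, adjusted p = 0.000696). Lipa, the acid lipase of cholesteryl esters and triglycerides, differed by 0.48 ± 0.13 in GF mice (adjusted p = 0.0295, lost without replicate 2 or 3 of either genotype, at 0.0531 to 0.173). In SPF mice it was at 11.09, 10.80, 10.82 and 11.03 in Tg and at 10.55, 10.28, 10.52 and 10.61 in WT (0.44 ± 0.12, adjusted p = 0.0195), a call lost without WT replicate 2 or Tg replicate 1 or 4 (0.0779 to 0.0972). The Tg arrays of both genes stayed above the WT arrays. Gaa, which digests glycogen, was higher under SPF housing, at 8.76, 8.73, 8.33 and 8.68 in Tg and at 8.21, 7.83, 8.17 and 8.02 in WT (0.56 ± 0.15, adjusted p = 0.0207), a call lost without any of 5 of the 8 arrays, the exceptions being Tg replicate 3 and WT replicates 1 and 3 (0.0551 to 0.0918). The peptidase Tpp1 was called in GF mice (0.43 ± 0.13, adjusted p = 0.0387), but leaving out any of the 6 arrays ended that call (0.0514 to 0.18). By contrast, Npc2, the lumenal partner of Npc1, was at 9.11, 8.83, 9.25 and 9.16 in Tg and at 8.81, 8.96, 9.23 and 8.59 in WT at PND 42 SPF (0.19, 95% interval -0.18 to 0.55), and Hexa, which trims gangliosides, differed by 0.06 (-0.19 to 0.30) in GF mice and by 0.13 (-0.09 to 0.34) in SPF mice.

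A few hydrolases were lower in Tg. Ppt1, which strips fatty acids from proteins, was at 8.76, 8.59, 8.75 and 8.62 in Tg and at 9.44, 9.54, 9.36 and 9.25 in WT at PND 3, a difference of -0.72 ± 0.11 (adjusted p = 0.00012) with no overlap. Arsb, a sulfatase of dermatan sulfate, was at 7.99, 7.66, 7.59 and 7.70 in Tg and at 8.39, 8.23, 8.34 and 8.18 in WT at the same age (-0.55 ± 0.12, adjusted p = 0.00637), while its dimmer second feature differed by -0.48 (adjusted p = 0.39). Ids, a sulfatase of heparan and dermatan sulfate, was at 7.26, 7.02 and 6.86 in Tg and at 7.73, 7.88 and 7.56 in WT in GF mice. Its difference of -0.67 ± 0.19 (adjusted p = 0.0277) was lost without WT replicate 1 or 2 or Tg replicate 2 or 3 (0.079 to 0.196), and under SPF housing it was -0.53 ± 0.16 (adjusted p = 0.0542).

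**Figure D3:**
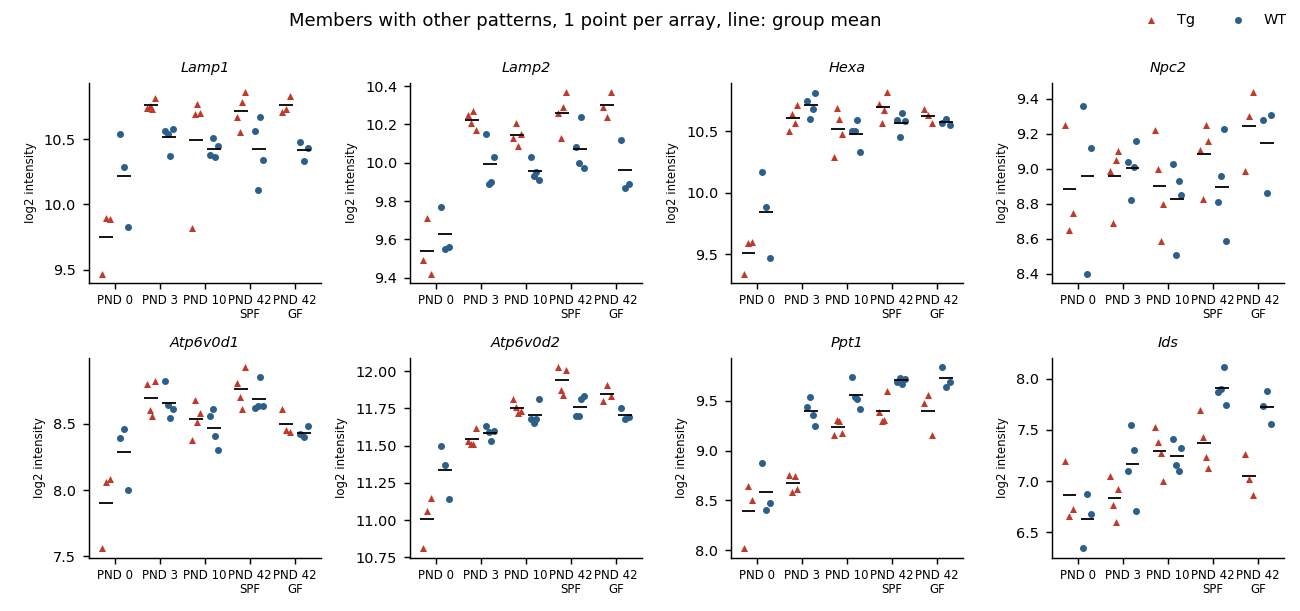
Log2 intensity (vertical axis) of 8 further members by age and housing (horizontal axis), with 1 point per array (Tg as triangles left of WT as circles) and a line at the group mean. Lamp1, Hexa, Npc2, Atp6v0d1 and Atp6v0d2 were not called at PND 42 in either housing, Ppt1 lies lower in Tg at PND 3 and Ids lies lower in Tg in GF mice.

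The proton pump was raised in some subunits and not in others. At PND 42, 5 of the 10 subunits were higher in GF mice and 3 in SPF mice (against 3.14% and 2.72% of all features), beside 1 at PND 3 (2.17%) and 2 at PND 10 (1.13%). Atp6v1a, the catalytic subunit of V1, was at 9.71, 9.73 and 9.87 in Tg and at 9.06, 8.92 and 9.21 in WT in GF mice. In SPF mice of PND 42 it was at 9.96, 9.90, 9.77 and 10.05 in Tg and at 9.18, 9.02, 9.22 and 9.23 in WT. The genotypes did not overlap, and the differences were 0.71 ± 0.11 in GF mice (adjusted p = 9.48e-05) and 0.76 ± 0.10 in SPF mice (1.69-fold, adjusted p = 3.22e-06). The subunit was also higher by 0.53 ± 0.10 at PND 10 (adjusted p = 0.00187) and by 0.37 ± 0.10 at PND 3 (adjusted p = 0.0214), where the call at PND 3 was lost without replicate 2 or 3 of either genotype (0.0538 to 0.106).

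Atp6v0a1, an isoform of the large membrane subunit of V0, was at 9.11, 9.48 and 9.43 in Tg and at 8.30, 8.50 and 8.44 in WT in GF mice. At PND 42 under SPF housing it was at 9.44, 9.14, 9.41 and 9.60 in Tg and at 8.47, 8.42, 8.50 and 8.64 in WT. Both sets were apart, with differences of 0.93 ± 0.14 in GF mice (1.90-fold, adjusted p = 3.84e-05) and 0.90 ± 0.12 in SPF mice (1.86-fold, adjusted p = 5.9e-06). At PND 3 the same subunit was at 9.15, 9.01, 9.51 and 9.28 in Tg and at 9.18, 9.01, 8.92 and 8.97 in WT, which overlapped (0.22 ± 0.12, adjusted p = 0.481). Atp6v1c1, which links the sectors of the pump, differed by 0.68 ± 0.15 in GF mice (adjusted p = 0.00396). In SPF mice of PND 42 it was at 9.90, 9.81, 9.89 and 10.10 in Tg and at 9.06, 9.08, 9.0 and 9.16 in WT, without overlap (0.85 ± 0.13, adjusted p = 4.3e-05). Atp6v1h, a regulatory subunit of V1, was at 8.21, 8.37 and 8.55 in Tg and at 7.40, 7.59 and 7.85 in WT in GF mice (0.77 ± 0.19, adjusted p = 0.0119, lost without WT replicate 1 or Tg replicate 3, at 0.0889 and 0.105). Under SPF housing its 4 Tg arrays also lay above the 4 WT arrays (0.54 ± 0.16, adjusted p = 0.0505).

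The remaining pump subunits differed by less. Atp6v1b2, the second subunit type of the ATP-splitting ring, rose by 0.44 ± 0.12 in GF mice (adjusted p = 0.0209, lost without WT replicate 1 or 2 or Tg replicate 2 or 3, at 0.0601 to 0.124), and Atp6v1d, of the central stalk, by 0.40 ± 0.09 at PND 10 (adjusted p = 0.0189, lost without any of 6 of the 8 arrays, Tg replicate 3 and WT replicate 4 being the exceptions, at 0.0519 to 0.0792). The d subunit of V0 has a general and a restricted isoform, and neither was called after PND 0. Atp6v0d1, the general form, differed by 0.07 in GF mice (95% interval -0.19 to 0.33) and by 0.08 in SPF mice of PND 42 (-0.15 to 0.31). Atp6v0d2, the form known from osteoclasts, was at 12.03, 11.87, 11.84 and 12.01 in Tg and at 11.70, 11.70, 11.81 and 11.83 in WT at PND 42 SPF, every Tg array above every WT array, with a difference of 0.18 (0.02 to 0.33, adjusted p = 0.239).

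The 2 transcription factors were not called after PND 0. Tfeb, which binds CLEAR elements, differed by -0.44 at PND 3 (95% interval -0.75 to -0.12, adjusted p = 0.131), by -0.21 at PND 10, by -0.06 at PND 42 SPF (-0.37 to 0.26) and by -0.20 in GF mice (-0.57 to 0.16). Mitf, its relative, differed by 0.06, 0.14, 0.07 and -0.27 in the same order, and its 95% interval at PND 42 SPF was -0.31 to 0.45.

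The 19 members that no genotype comparison called were 12 hydrolases and cofactors (Smpd1, Neu1, Npc2, Hexa, Glb1, Asah1, Gusb, Arsa, Galns, Man2b1, Fuca1 and Manba), the membrane proteins Lamp1, Npc1 and Scarb2, the subunits Atp6v1e1, Atp6v0b and Atp6v0d1, and Mitf. Their differences ran from -0.29 (Fuca1, a fucosidase) to 0.45 (Smpd1, the acid sphingomyelinase, adjusted p = 0.126) in GF mice, and from -0.28 (Manba, a mannosidase) to 0.43 (Smpd1, adjusted p = 0.0826) in SPF mice of PND 42. Of these, Atp6v1e1, of the peripheral stalk, came closest to the threshold in SPF mice, at 0.33 (adjusted p = 0.0552).

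Averaged by class, the membrane proteins and pump subunits lay apart by genotype at PND 42. Igf2r is 1 of the 9 genes in the mean of the membrane proteins, and by the median difference of a class the membrane proteins were at 0.34 in GF and 0.28 in SPF mice, the pump subunits at 0.38 and 0.33 and the hydrolases at 0.10 and 0.11. On the scale of mean log2 level over the 9 membrane proteins, Tg arrays were at 9.74 to 9.91 and WT arrays at 9.05 to 9.61 at PND 3, Tg at 9.48 to 9.69 and WT at 8.99 to 9.10 at PND 10, Tg at 9.60 to 9.77 and WT at 8.97 to 9.07 at PND 42 SPF, and Tg at 9.54 to 9.71 and WT at 8.88 to 9.01 in GF mice. The 10 pump subunits averaged 9.67 to 9.81 in Tg and 9.25 to 9.42 in WT in GF mice, and 9.74 to 9.92 in Tg and 9.34 to 9.38 in WT in SPF mice of PND 42. At PND 3 they averaged 9.66 to 9.70 in Tg and 9.40 to 9.61 in WT. At PND 10 they averaged 9.47 to 9.71 in Tg and 9.41 to 9.44 in WT. The 22 hydrolases averaged 8.80 to 8.85 in Tg and 8.61 to 8.66 in WT in GF mice, and 8.80 to 8.92 in Tg and 8.56 to 8.80 in WT in SPF mice, touching at the border. Some markers of other cells moved with these values. At PND 3, 14 neutrophil markers averaged 6.53 to 7.64 in Tg and 4.95 to 6.24 in WT and 6 monocyte markers 7.55 to 8.14 in Tg and 6.39 to 7.40 in WT, with WT replicate 1 highest of its group in both as it was for Igf2r, Gpnmb and Gla. Macrophage markers were lower there, at 9.15 to 9.32 in Tg and 9.46 to 9.51 in WT. Without that WT array the difference of Igf2r at PND 3 was 3.65 (adjusted p = 4.07e-10), and 8 members were called in place of 6. The share of all features called without it was not determined. At PND 10 the monocyte markers averaged 6.93 to 7.17 in Tg and 6.20 to 6.67 in WT. In adult GF mice the neutrophil markers averaged 5.06 to 5.68 in Tg and 4.45 to 4.51 in WT, the monocyte markers 6.6 to 7.25 in Tg and 5.81 to 5.91 in WT, and 9 lymphocyte markers, of which 4 were called higher, 3.56 to 4.08 in Tg and 3.12 to 3.21 in WT. There 3 of 8 dendritic cell markers were higher in Tg, where 3.14% of all features were. In SPF mice of PND 42 the neutrophil markers averaged 4.64 to 5.07 in Tg and 4.35 to 4.49 in WT and the monocyte markers 6.20 to 6.48 in Tg and 5.82 to 6.14 in WT. Of 8 dendritic cell markers 5 were higher in Tg, where 2.72% of all features were. The macrophage markers averaged 9.73 to 9.88 in Tg and 9.74 to 9.79 in WT in GF mice, and 9.79 to 9.91 in Tg and 9.81 to 9.84 in WT in SPF mice, overlapping in both. The part of these cells in the lysosomal differences was not tested.

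**Figure D4:**
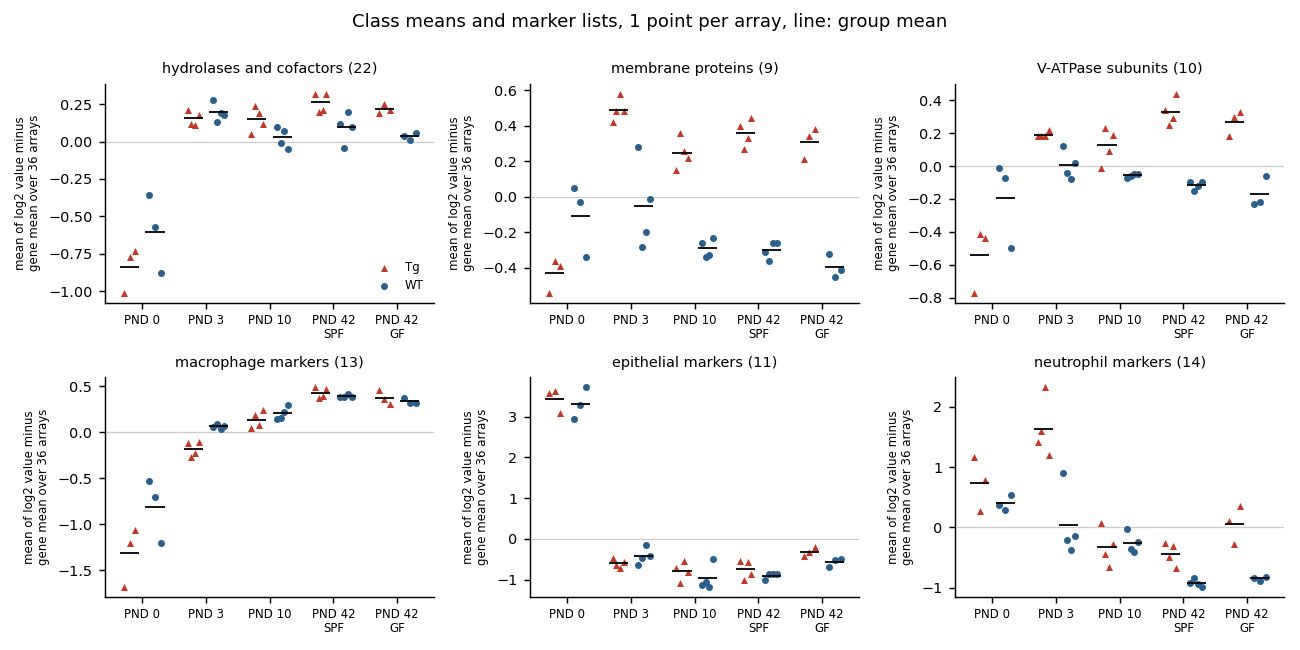
Mean over the genes of a class or marker list of the log2 value minus the mean of the gene over 36 arrays (vertical axis), by age and housing (horizontal axis), with 1 point per array (Tg as triangles left of WT as circles) and a line at the group mean. The membrane proteins and pump subunits are higher in Tg at PND 42, epithelial markers stand far higher on the arrays of PND 0, and 1 WT array of PND 3 is above its group in membrane proteins and neutrophil markers.

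At birth the 6 members that were called were all lower on the arrays labelled Tg. Of these, Gpnmb, Naglu and Atp6v1a were called higher in Tg later, whereas Tfeb, Mcoln1 and Atp6v0d2 were never called higher. On the arrays labelled Tg at PND 0, Tfeb was at 5.96, 6.44 and 6.20, against 7.01, 7.0 and 6.79 on those labelled WT (-0.73 ± 0.18, adjusted p = 0.0146). Gpnmb was at 9.16, 9.10 and 9.03 on arrays labelled Tg and at 9.96, 9.73 and 9.30 on arrays labelled WT (-0.57 ± 0.15, adjusted p = 0.0275), and Naglu at 6.21, 6.32 and 6.72 on arrays labelled Tg and at 7.26, 6.74 and 6.99 on arrays labelled WT (-0.58 ± 0.16, adjusted p = 0.0275). These 3 and Atp6v1a (-0.42 ± 0.11, adjusted p = 0.0289) did not overlap between the labelled genotypes, while Mcoln1 (-0.59 ± 0.15, adjusted p = 0.0232) and Atp6v0d2 (-0.33 ± 0.09, adjusted p = 0.0236) did. Beside this, 9 of 9 skeletal muscle markers were higher on arrays labelled Tg (mean 6.38 to 7.65, against 3.57 to 3.97 on arrays labelled WT), as were 6 of 7 fibroblast markers (4.23 to 7.51, against 4.32 to 5.12) and 3 of 4 erythroid markers (4.02 to 8.95, against 4.05 to 4.5), and 3 of 13 macrophage markers were lower. Of all features, 2.74% were called higher and 1.59% lower on these arrays. Tg replicate 2 was lowest of all 6 arrays in the fibroblast and erythroid means. The part of these cells in the lysosomal values was not tested. Each of the 6 calls was lost without Tg replicate 1 and without WT replicate 1, and none was made when arrays were weighted by their group's variance or the 2 groups fitted alone. Without replicate 3 of both genotypes, whose Scnn1b went against the labels or did not separate, 24 members were lower. This exclusion was chosen after seeing the data, and the share of all features called lower in it was not determined.

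With age, most of these genes rose once, between PND 0 and PND 3. In Tg macrophages 37 of 43 were higher and none lower at PND 3 than on the arrays labelled Tg at PND 0 (against 16.0% and 14.0% of all features, with 0 lower at an unadjusted p under 0.05 by limma, and 0 lower after adjustment without moderation), and in WT macrophages 26 were higher and 2 lower (against 14.0% and 12.0%). With only the 2 groups fitted, 13 were higher and 0 lower in WT, and the share of all features called in that fit was not determined. The median rise was 0.79 in Tg and 0.37 in WT. Among the 13355 brighter features 32.0% rose in Tg and 29.0% in WT. By class, 18 of 22 hydrolases, 8 of 9 membrane proteins and 10 of 10 pump subunits rose in Tg, and 19, 4 and 3 in WT. Acp5 rose most in both. In Tg it was at 10.09, 10.22, 9.98 and 10.10 at PND 3, against 6.46, 7.17 and 7.73 at PND 0 (2.98 ± 0.20, 7.88-fold, adjusted p = 9.51e-13). In WT it was at 10.19, 9.89, 9.91 and 10.05 at PND 3, against 8.13, 7.56 and 7.75 at PND 0 (2.20 ± 0.20, 4.58-fold, adjusted p = 8.75e-10). No array of PND 3 overlapped with PND 0 for this phosphatase. The share of all features without overlap between ages was not determined. Gla (2.13, adjusted p = 4.39e-10) and Gpnmb (1.86, 1.14e-11) followed in Tg, and Arsb (1.89, 3.16e-12) and the mannosidase Man2b1 (1.39, 1.65e-11) in WT.

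In WT, Igf2r was lower at PND 3, at 7.26, 3.90, 4.24 and 5.10, against 7.11, 7.32 and 6.95 at PND 0 (-2.0 ± 0.44, adjusted p = 0.000724), with only WT replicate 1 of PND 3 in the range of PND 0. That call was not made when the 2 groups were fitted alone. The other WT fall was that of Smpd1 (-0.51 ± 0.15, adjusted p = 0.0107), a call that centring also ended. Centring each array on its median moved the median of all features by 0.25 in Tg and 0.24 in WT in this comparison, and gave 40 members higher in Tg, and 36 higher and 1 lower (Igf2r) in WT. The share of all features called after centring was not determined. Markers of other cells fell at the same step: 11 of 11 epithelial markers were lower at PND 3 in each genotype, and 9 of 13 macrophage markers in Tg and 8 in WT were higher. Of all features, 16.0% rose and 14.0% fell in Tg, and 14.0% rose and 12.0% fell in WT. The share of macrophage RNA and the level per macrophage cannot be told apart here.

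After PND 3 few members were called with age. Of PND 10 against PND 3, Ppt1 alone rose in Tg (0.56 ± 0.11, adjusted p = 0.00574, against 0.518% and 0.936% of features that rose and fell), at 9.16, 9.31, 9.30 and 9.18 at PND 10, against 8.76, 8.59, 8.75 and 8.62 at PND 3. Igf2r, named here after its values were seen, was at 6.96, 6.89, 6.39 and 6.52 in Tg at PND 10, against 8.02, 8.22, 8.34 and 7.66 at PND 3. These arrays did not overlap, and the difference of -1.37 ± 0.41 did not pass the test over all arrays (adjusted p = 0.101) but did when the 2 groups were fitted alone (0.00921). Without Tg replicate 3 of PND 10, Atp6v0b was lower in Tg at PND 10 (-0.60, adjusted p = 0.0475). In WT no member was called (0.0311% of features rose and 0.100% fell, by limma), with 12 members lower and 0 higher at an unadjusted p under 0.05, and the test without moderation called 0 after adjustment. The share of all features at that unadjusted p was not determined. Of PND 42 SPF against PND 10, Acp5 rose by 0.71 (adjusted p = 0.0245) and Naglu by 0.49 (adjusted p = 0.03) in Tg, against 2.58% and 2.03% of features that rose and fell. In WT, Ids rose (0.66, adjusted p = 0.0183, lost without WT replicate 2 or 3 of PND 10 or 3 of PND 42, at 0.0603 to 0.0883) and Atp6v0a1 fell (-0.56, adjusted p = 0.00621), against 1.32% and 1.19% of features. Without Tg replicate 1 of PND 10 the rise of Acp5 was 0.50 (adjusted p = 0.145) and that of Naglu 0.36 (0.162). The call of Acp5 was also lost without Tg replicate 1 or 4 of PND 42, and that of Naglu without Tg replicate 4 of PND 10 or Tg replicate 1, 2 or 3 of PND 42.

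The genotype difference was set directly against itself between ages. From PND 3 to PND 42 SPF it grew for Atp6v0a1 by 0.68 ± 0.17 (95% interval 0.33 to 1.03, adjusted p = 0.036), the single member called of 43, against 0.705% of features with a growing and 0.522% with a shrinking difference, while 12 members grew and 0 shrank at an unadjusted p under 0.05. That call was lost without any of 11 of the 16 arrays (0.059 to 0.111), and kept without WT replicate 3 or Tg replicate 3 or 4 of PND 3, or without WT replicate 4 or Tg replicate 2 of PND 42. For Cd63 the change was 0.63 (0.25 to 1.00, adjusted p = 0.101), for Acp5 0.75 (0.21 to 1.30, adjusted p = 0.269) and for Igf2r -0.29 (-1.46 to 0.89). A difference between ages was therefore not shown for these 3. For this change the share of all features at an unadjusted p under 0.05 was not determined.

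Germ-free housing was compared with SPF housing to ask how far the adult pattern depended on microbes. No member was called between GF and SPF mice within either genotype by limma. In Tg macrophages 0.0760% of features were higher and 0.0657% lower in GF mice, the lowest adjusted p of a member was 0.466, and 0 members were higher and 3 lower at an unadjusted p under 0.05. In WT macrophages 0.0104% of features were higher and 0.0553% lower, the lowest adjusted p of a member was 0.904, and 0 members were higher and 4 lower at an unadjusted p under 0.05. The test without moderation called 0 in both.

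**Figure D5:**
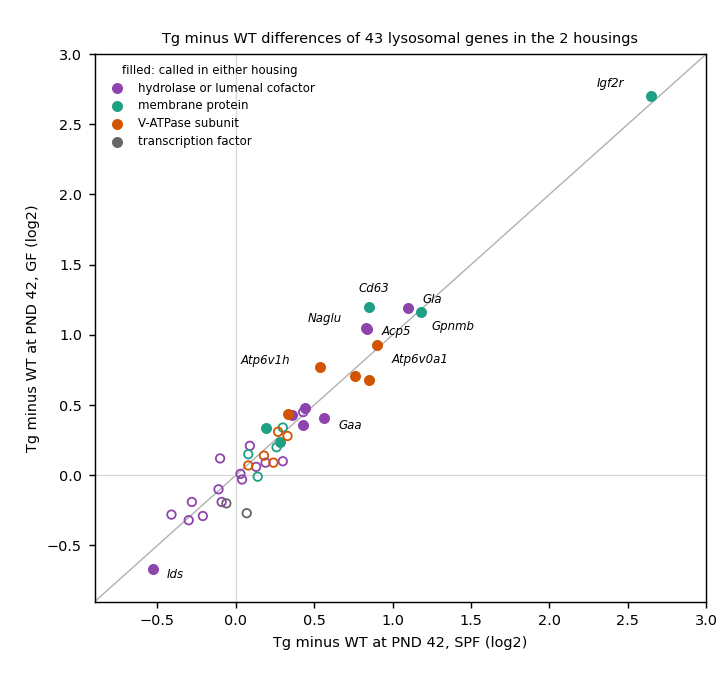
Log2 difference of Tg minus WT at PND 42 in GF mice (vertical axis) against that in SPF mice (horizontal axis) for the 43 members, coloured by class, filled where called in either housing, with the line of equal differences. Igf2r stands apart at 2.70 in GF and 2.65 in SPF mice, and the members lie along the line, with no distance above 0.35.

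The 2 genotype differences share no arrays. They had the same sign in 39 of 43 members (90.7%, against 64.7% of all features). All features include many near background, and the share among the brighter features was not taken. Called higher in both were 11 members: Igf2r, Gpnmb, Gla, Atp6v0a1, Cd63, Atp6v1c1, Acp5, Naglu, Atp6v1a, Lipa and Psap. They were 73.3% of the 15 higher in GF mice and 84.6% of the 13 higher under SPF housing, where 545 features of all were called higher in both, 59.9% of those in GF mice and 69.3% of those under SPF housing. In the direct test of GF minus SPF no member was called (0.00346% of features had a larger and 0% a smaller difference, and 0 members passed in either direction at an unadjusted p under 0.05, or after adjustment without moderation). The interval of that change was -0.43 to 0.39 for Gpnmb, -0.05 to 0.75 for Cd63, -0.34 to 0.40 for Atp6v0a1 and -1.22 to 1.33 for Igf2r, so changes of such sizes could not be told from none.

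Other genes of the pathway were read from lists by function. Of cathepsins and other lysosomal proteases, 16 were measured. In GF mice of PND 42, 5 were higher and 0 lower in Tg (against 3.14% and 1.77% of all features). In SPF mice 4 were higher and 2 lower (against 2.72% and 1.77%). Legumain (Lgmn) differed by 1.60 in GF mice (adjusted p = 2.28e-08) and by 1.33 under SPF housing (2.82e-08), Ctsl by 1.44 (3.4e-07) and 1.22 (4.17e-07), and the collagen-cleaving Ctsk by 1.63 (0.000337) and 1.21 (0.00209). Ctsl was at 10.27, 10.20, 10.26 and 10.23 in Tg and at 9.13, 9.10, 8.79 and 9.07 in WT under SPF housing, well apart. The 2 lower proteases were Napsa (-0.99, adjusted p = 0.00317) and Ctsh (-0.42, adjusted p = 0.0136), both known also from alveolar epithelium. Of 12 further hydrolases only Hgsnat, of heparan sulfate breakdown, was called in GF mice (0.65, adjusted p = 0.0115), and none in SPF mice, where it differed by 0.46 (0.0528). Whether 1 call among 12 genes exceeds the share of all features was not tested.

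Of 23 further membrane proteins, channels and sorting factors, 5 were higher in GF and 4 in SPF Tg mice, and none lower. Of all features, 3.14% were higher in GF and 2.72% in SPF Tg mice. Slc11a1, a metal transporter of phagosomes, was at 5.96, 6.73 and 6.93 in Tg and at 4.28, 3.83 and 3.85 in WT in GF mice, and at 6.41, 6.64, 6.69 and 6.75 in Tg and at 3.76, 4.21, 4.14 and 3.98 in WT under SPF housing. The genotypes were far apart in both, with WT near background, by 2.55 ± 0.42 (adjusted p = 0.000157) and 2.60 ± 0.37 (1.34e-05). The channel Mcoln2 differed by 1.43 (8.83e-08) in GF mice and 1.20 (9.83e-08) under SPF housing, and the nucleoside transporter Slc29a3 by 1.20 (0.00035) and 1.14 (9.27e-05). Of 13 further V-ATPase subunits and accessory proteins, Atp6ap2 alone was higher, by 0.66 (adjusted p = 0.0192) in GF mice and 0.54 (0.0295) under SPF housing. Whether 1 call among 13 genes exceeds the share of all features was not tested. Among 14 MiT/TFE factors and genes of lysosomal nutrient sensing, 2 were higher in GF and 4 in SPF Tg mice (against 3.14% and 2.72%). Rragd, a GTPase that acts at the lysosome surface, was at 4.72, 5.19, 5.51 and 5.70 in Tg and at 3.24, 3.04, 3.46 and 3.09 in WT under SPF housing, where WT was at background (2.07 ± 0.24, adjusted p = 5.35e-07), and differed by 1.55 (0.000432) in GF mice. Fnip2, a partner of folliculin, differed by 1.65 (2.44e-05) and 1.28 (0.000108), and Fnip1 by 0.64 (0.00288) under SPF housing.

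At the step from birth to PND 3, the same lists rose with the members: 14 of 16 proteases in Tg and 11 in WT, 10 of 12 further hydrolases in Tg and 11 in WT, and 18 of 23 further membrane proteins in Tg and 13 in WT, where 16.0% of all features and 32.0% of the brighter ones rose in Tg, and 14.0% and 29.0% in WT. Of the 13 further pump subunits 5 rose and 2 fell in Tg, and 2 rose and 2 fell in WT. The largest change among these was a fall of Atp6v1c2, an isoform known from epithelia (-2.51 in Tg, adjusted p = 4.23e-10, and -2.46 in WT, adjusted p = 9.5e-10), beside the fall of the epithelial markers.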

How the data were processed

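RNA of lavage macrophages (12 ng amplified per array) was measured on 36 one-colour Affymetrix gene arrays in 10 groups of 3 or 4. The deposited values are log2 intensities that the authors obtained by RMA in Partek (version 6.5 in the submitters' processing notes). RMA adjusts background, applies quantile normalization and summarises probes, so that overall shifts between arrays were largely removed beforehand. Of 35556 features, 6616 whose identifiers lay below the lowest identifier in the platform annotation were left out. Of the 28940 kept, 21218 carried 1 gene symbol in that annotation, 1881 several and 5841 none.

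Group means were fitted to all 36 arrays with limma 3.58.1 in R 4.3.3, and 15 contrasts were tested two-sided with moderated variances and Benjamini-Hochberg adjustment over the 28940 features. The fits were tested on simulated data, with a minimum recovery of added changes required for every genotype comparison but that of PND 0. The members and lists were chosen with earlier results of these data known. Named genes were, among the members, up to 6 called risers and 4 called fallers per genotype comparison, up to 3 of each sign in other contrasts and a fixed set given called or not, and up to 3 called genes of each further list. Alternatives changed normalization, weights, samples in the fit, filters, thresholds, the feature taken for a gene and the replicate block, and left out each array in turn. An exact permutation test cannot reach a p below 0.1 with 3 against 3 arrays, or below 0.0286 with 4 against 4. The number of arrays limits the precision. Promoter sequences are those of RefSeq (GRCm38.p6), and 7 members had no entry.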

Additional observations from a re-analysis of the deposited data

Results flagged for a closer look

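In groups of 4 arrays, 9 of 168 member values, for 28 members named in the text, had an array far from the others by Dixon's test, which sets the gap to the nearest array against the range of the group. Chance gives about 1 in 20. On Tg replicate 1 of PND 10, Lamp1 was at 9.82 (others 10.69 to 10.77) and Atp6v1a at 9.36 (9.68 to 9.75). On WT replicate 4 of PND 10, Gpnmb was at 9.40 (9.81 to 9.89) and Tfeb at 6.41 (6.92 to 7.02). Cd68 was at 11.61 on Tg replicate 4 of PND 10 (11.75 to 11.77) and at 11.62 on WT replicate 1 of PND 3 (11.49 to 11.51). Lamp1 was at 10.81 on Tg replicate 4 of PND 3 (10.73 to 10.75), Arsb at 7.87 on Tg replicate 1 of PND 42 SPF (7.60 to 7.64) and Atp6v0d1 at 8.85 on WT replicate 3 of PND 42 SPF (8.62 to 8.63).

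The genotype difference of Atp6v0a1 was larger at PND 42 SPF than at PND 3 by 0.68 in the test of that change itself (limma, adjusted p = 0.036).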

How the results depend on the processing

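None of the 117 calls of a member turned its direction under any alternative run (genes of other lists were not recomputed), and the cause of the changes in counts was not tested. For the counts below from fits with other arrays, weights, scaling or groups, the share of all features called was not determined. Fitting only the groups compared called 0 members for genotype at PND 0, 3 at PND 10, 9 in GF mice, 2 for PND 10 against PND 3 and 0 for PND 42 against PND 10 in Tg, 13 for PND 3 against PND 0 in WT, and 2 for the change of the genotype difference between PND 3 and PND 42. Array quality weights called 0 at PND 0, 11 at PND 3, 8 at PND 10, 22 at PND 42 SPF (19 higher, 3 lower) and 3 for that change, and weights by group variance 0 at PND 0, 22 at PND 42 SPF (19 higher, 3 lower) and 2 for that change. Quantile normalization repeated called 4 for PND 42 against PND 10 in Tg. Median centring called 11 at PND 0, all lower, and split PND 42 SPF into 11 higher and 2 lower, where the deposited values gave 13 and 0. Asking for a 2-fold change in addition left 0 at PND 0, 1 at PND 3, 2 at PND 10, 6 in GF mice and 3 in SPF mice of PND 42, 15 in Tg and 7 in WT for PND 3 against PND 0, and 0 for PND 42 against PND 10 in WT, for PND 10 against PND 3 and PND 42 against PND 10 in Tg, and for that change. An adjusted p of 0.01 left 0 at PND 0, 3 at PND 10, 9 in GF mice, 0 in Tg and 1 in WT for PND 42 against PND 10, and 0 for that change.

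Chosen after seeing the data, leaving all PND 0 arrays out of the fit called 8 at PND 10, 21 at PND 42 SPF (19 higher, 2 lower) and 3 for that change, and leaving out replicate 3 of both genotypes at PND 0 called 24 there. Leaving out 1 array at a time gave 0 to 23 members at PND 0 (0 with replicate 1 of either genotype left out, 13 with Tg replicate 3 and 23 with WT replicate 3 left out), 5 to 8 at PND 3, 3 to 5 at PND 10 (3 without Tg replicate 1 or 2 or WT replicate 1 or 3), 9 to 15 in GF mice (9 with Tg replicate 3 and 10 with WT replicate 2 left out), 10 to 15 in SPF mice of PND 42, 34 to 37 in Tg and 19 to 28 in WT for PND 3 against PND 0, 1 to 2 for PND 42 against PND 10 in WT, 1 to 2 for PND 10 against PND 3 (2 without replicate 3 of PND 10) and 0 to 2 for PND 42 against PND 10 in Tg, 0 to 1 for that change, and 0 in the others. Same-numbered samples of the 2 genotypes deviated together (a correlation over 0.1) in 1 pair of PND 10 and in no other, and not every sample correlated best with its own number, so the numbers were not taken as a pairing. With the replicate number as a block, 6 members were called at PND 0, 6 at PND 3, 6 at PND 10, 15 in GF mice and 16 in SPF mice of PND 42 (14 higher, 2 lower), and 28 and 2 for PND 3 against PND 0 and PND 42 against PND 10 in WT. Arrays near background bound the size of the Igf2r differences.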

Other observations

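Genes of osteoclasts and lipid-loaded macrophages, a list that shares Ctsk with the proteases and was chosen with earlier results known, were higher in Tg at PND 42 in 8 of 15 measured genes in GF mice and in 7 under SPF housing, with none lower and a median difference of 0.90 and 0.42 (3.14% and 2.72% of all features were higher). Mmp12, the macrophage elastase, was at 10.43, 10.39 and 10.62 in Tg and at 5.69, 5.63 and 5.22 in WT in GF mice, and at 10.33, 9.95, 10.33 and 10.48 in Tg and at 5.72, 5.54, 5.51 and 5.70 in WT under SPF housing (4.97 ± 0.44, adjusted p = 8.1e-09 and 4.65 ± 0.38, adjusted p = 9.16e-10, by limma). The lipid receptor Trem2 differed by 1.56 (5.29e-08) and 1.44 (1.33e-08), and Ocstamp, needed for osteoclast fusion, by 4.67 ± 0.76 (adjusted p = 0.000119) in GF mice and 1.14 ± 0.66 (adjusted p = 0.499) under SPF housing.

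Of 18 autophagy genes measured, 1 was higher and 1 lower in Tg in GF mice and 1 was higher under SPF housing, against 3.14% and 1.77% of all features in GF mice and 2.72% under SPF housing, so that these counts were near the background. Gabarapl1, an adaptor of autophagosomes, differed by 0.62 (adjusted p = 0.0427) and 0.63 (0.0151), and Map1lc3a by -0.96 (0.0308) in GF mice.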
